A study of Mus musculus with 12 samples.

Results

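The transglutaminases are a family of enzymes that join proteins to one another. The 8 mouse genes Tgm1, Tgm2, Tgm3, Tgm4, Tgm5, Tgm6, Tgm7 and F13a1 were taken by symbol from the 38924 genes of the count tables, and their levels were compared between APC Min/+ and WT mice and with the level of Tgm3. All 8 were found in the tables. Of these, 7 had at least 10 counts in at least 3 mice and were among the 20311 genes tested, and Tgm6 was not. RNA came from proximal colon segments of 6 APC Min/+ mice, which carry the Min allele of Apc on a C57BL/6 background, and of 6 WT mice of the same background. All 12 mice were females aged 6 weeks. They were bought in several shipments and the genotypes were kept in different cages, so effects of cage and of genotype cannot be told apart. Values belong to whole tissue, in which fewer cells of a type and less RNA per cell cannot be told apart, and counts per gene do not separate the Min allele from the normal allele.

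Transglutaminases use calcium and a cysteine in their active site to form a bond between a glutamine of one protein and a lysine of another, which makes protein networks that are hard to break. TG1, TG3 and TG5 are best known from the epidermis and the hair follicle, where they seal the cornified envelope of dying keratinocytes. TG2, tissue transglutaminase, is made by endothelium, smooth muscle and many other cells and is the enzyme recognised by autoantibodies in coeliac disease. F13a1 encodes the catalytic A subunit of coagulation factor XIII, which cross-links fibrin in a clot and is made by macrophages and by megakaryocytes. Tgm4 encodes the prostate enzyme, Tgm6 is known from the nervous system, and the role of Tgm7 is little known.

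Totals on genes lay between 50313805 and 197914821 counts per mouse, with a median of 97592282. In CPM, 3 counts were worth 0.0152 in the deepest library and 0.0596 in the shallowest, and such limits cover counting error only. Of the 12 libraries, those of the APC Min/+ mice M10_2 and M13_1 stood apart from the others. The summed level of 9 posterior Hox genes was 482 CPM in M10_2, 634 CPM in M13_1 and 22.3 to 38.2 CPM in the other 10 mice. Most of it was Hoxb13 for M10_2 (378 CPM), and Hoxb13 (275 CPM) with Hoxd13 (209 CPM) for M13_1. Hoxd13 reached 12.4 CPM in M10_2. Hoxa11 stayed inside the range of the other mice, and Hoxc12 and Hoxc13 had no count. Hoxd10 and Hoxd11 were lowest of all mice in M10_2 (3.30 and 4.84 CPM) and highest in M13_1 (29.4 and 45.6 CPM). Members other than Hoxb13 and Hoxd13 were named after their values were seen. The summed level of 10 colon epithelium genes was 10408 and 11516 CPM in M10_2 and M13_1, against 27056 to 48990 CPM in the others. Car1, a carbonic anhydrase of the surface epithelium, had 965 CPM in M10_2, 2539 CPM in M13_1 and between 14621 and 32560 CPM in the other 10. All 12 libraries carry the same tissue label, and the genotype differences of the members are given with and without M10_2 and M13_1 where these mice move them.

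The coding bases around the catalytic cysteine are shown because the members share them and because they show how far the transcripts differ, which decides whether 100 bp reads can be assigned to a single member. In each line the codon of the cysteine is in capitals, with 6 codons on either side, 5′ to 3′ on the strand of the gene, read from the GENCODE M21 transcripts of GRCm38.
Tgm1: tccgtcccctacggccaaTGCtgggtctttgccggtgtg
Tgm2: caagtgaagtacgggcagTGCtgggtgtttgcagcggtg
Tgm3: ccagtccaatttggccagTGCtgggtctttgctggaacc
Tgm4: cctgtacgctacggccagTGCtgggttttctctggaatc
Tgm5: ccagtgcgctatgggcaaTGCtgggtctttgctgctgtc
Tgm6: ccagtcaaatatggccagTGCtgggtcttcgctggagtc
Tgm7: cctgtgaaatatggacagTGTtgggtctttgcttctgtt
F13a1: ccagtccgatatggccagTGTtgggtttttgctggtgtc
The stretch lay within 1 exon in all 8 genes. In Tgm3 it was exon 6 of 13, at chr2:130029754-130029792 on the forward strand, and in Tgm6, which starts downstream of Tgm3 on the same strand, exon 6 of 13 at chr2:130141294-130141332. It was exon 6 of 13 in Tgm2 (chr2:158131341-158131379, reverse strand) and in Tgm5 (chr2:121070742-121070780, reverse strand), and exon 5 of 12 in Tgm7 (chr2:121103837-121103875, reverse strand). It was exon 7 in Tgm1 (chr14:55709404-55709442, reverse strand), Tgm4 (chr9:123051209-123051247, forward strand) and F13a1 (chr13:36946453-36946491, reverse strand). Set side by side without gaps, the 39 bases of Tgm3 matched those of Tgm6 at 34 positions, F13a1 at 32, Tgm4 and Tgm5 at 29, Tgm1 and Tgm7 at 27 and Tgm2 at 25. Over the whole transcripts, the longest run of identical bases was 24 in any of the 28 pairs and 18 in any pair that included Tgm3, both shorter than a read.

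Tgm3, whose enzyme cross-links the cornified envelope and the hair shaft, was abundant in M10_2 and M13_1 and nearly silent elsewhere. Tgm3 (ENSMUSG00000027401.9) lies on chromosome 2 from 130012349 to 130050399 in GRCm38. Its level was 2291 CPM in M10_2, and in M13_1 it was 2064 CPM. In the other 4 APC Min/+ mice it was 5.36 CPM in M8_2, 1.66 in M18_2b, 1.12 in M20_1 and 0.672 in M2_A. In the WT mice the lowest level was 0.294 CPM, the median 1.41 and the highest 2.93. The 2 high mice did not overlap with any other, while the other 4 APC Min/+ mice lay across the WT range, with only M8_2 above it. The lower of the 2 high levels was 385 times that of M8_2, the next mouse.

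**Figure D1:**
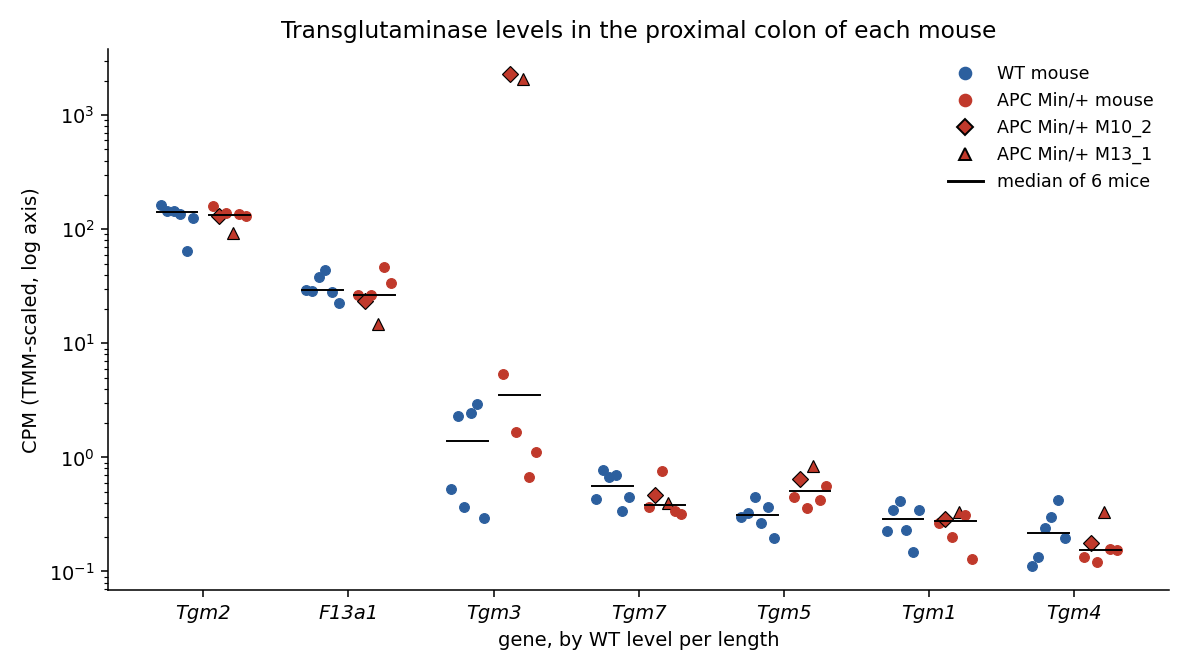
Level of 7 transglutaminases in CPM (log axis) in each of 6 WT mice (blue) and 6 APC Min/+ mice (red), with the median of each group as a bar and M10_2 and M13_1 as a diamond and a triangle; Tgm6 is left out because 9 of the 12 mice had no count. Tgm3 in M10_2 and M13_1 is at 2291 and 2064 CPM, against 0.294 to 5.36 CPM in the other 10 mice, and for the other genes the groups overlap.

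The place of Tgm3 in the whole library moved with it. Ordered by counts, Tgm3 was the 20th gene of M10_2 and the 21st of M13_1, and lay between place 11380 and place 16989 in the other 10 mice. Ordered by RPKM, a level per gene length, it was the 66th and the 69th gene in these mice. It took 0.241% of all counts in M10_2 and 0.227% in M13_1. The mean was 727 ± 1126 CPM in APC Min/+ mice and 1.47 ± 1.20 CPM in WT mice (SD, n = 6 each), so the SD of the APC Min/+ group exceeded its mean. The log2 fold change was 8.93 (SE 2.26), with an unadjusted p of 0.00161 and an FDR of 0.908 in edgeR's quasi-likelihood test, and Tgm3 was not a DEG. In this test 0 of the 20311 genes (0%) met the DEG threshold of an FDR under 0.05 and at least 2-fold, while 1071 genes (5.27%) had an unadjusted p under 0.05, of which 703 (3.46% of all tested) were higher in APC Min/+ mice. An exact permutation test of the mean log2(CPM + 0.1), two-sided, gave p = 0.108.

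The call of Tgm3 depended on the test and its fold change on the mice. FDR was 1.01e-04 with DESeq2, 0.0117 with edgeR's likelihood ratio test and 0.0274 with edgeR's exact test, which called 27 (0.133%), 15 (0.0739%) and 12 genes (0.0591%) in all. Over the 18 alternative settings, the FDR of Tgm3 ranged from 1.01e-04 to 0.9999. Without M10_2 and M13_1 the log2 fold change was 0.58 (SE 0.72, unadjusted p = 0.434 by the quasi-likelihood test), with a mean of 2.21 ± 2.14 CPM (SD) in the 4 remaining APC Min/+ mice. Leaving out M2_A or M20_1, which were low, took the exact permutation p to 0.0346 and 0.0476. The posterior Hox and colon epithelium sums given above moved with Tgm3 in the same 2 mice, and their part in its level was not tested.

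The makeup of the family differed accordingly. In the other 10 mice, Tgm2 held between 66.3% and 84.0% of all transglutaminase counts and F13a1 between 13.8% and 29.3%, while Tgm3 held between 0.195% and 3.03%. In M10_2, Tgm3 held 93.7% and Tgm2 5.32%. In M13_1 the shares were 95.0% and 4.27%. Together the family took 0.257% and 0.239% of all counts in these mice, against 0.00953% to 0.0208% in the other 10.

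**Figure D2:**
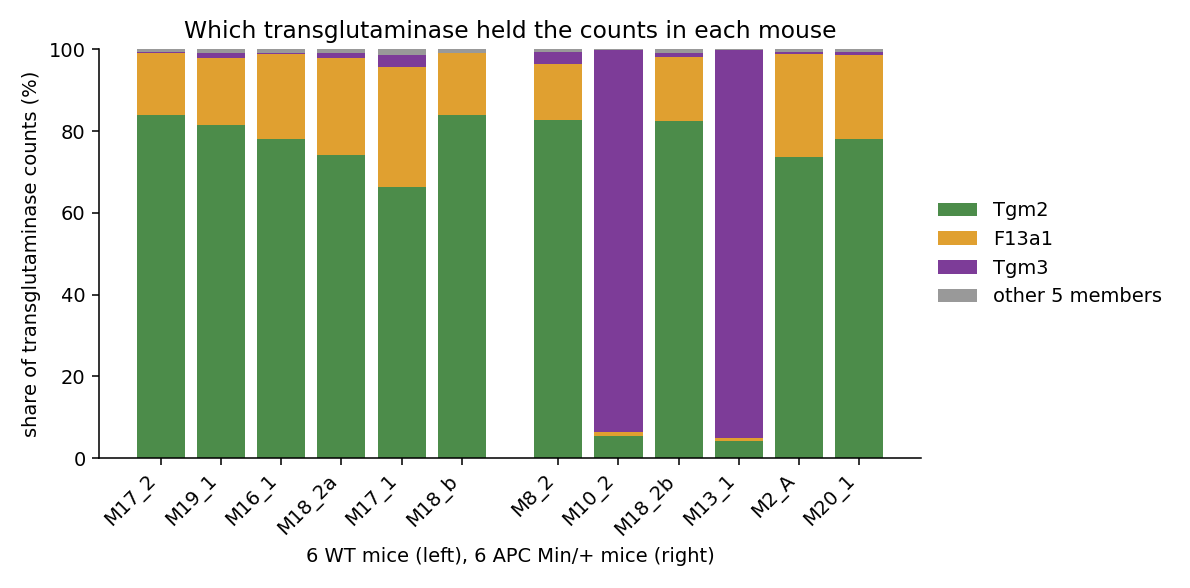
Share of all transglutaminase counts (%, y axis) held by Tgm2, F13a1, Tgm3 and the other 5 members in each of 6 WT and 6 APC Min/+ mice. Tgm3 fills 93.7% of the bar of M10_2 and 95.0% of that of M13_1, and at most 3.03% of any other.

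Levels per gene length in the WT mice ordered the members as Tgm2, F13a1, Tgm3, Tgm7, Tgm5, Tgm1, Tgm4 and Tgm6. Tgm2 had 28.2 ± 7.52 RPKM and F13a1 8.11 ± 1.94 RPKM (SD, n = 6). Tgm3 followed with 0.356 ± 0.291 RPKM, Tgm7 with 0.261 ± 0.0811 and Tgm5 with 0.101 ± 0.0274. Tgm1 had 0.0948 ± 0.0333 RPKM, Tgm4 0.0597 ± 0.0294 and Tgm6 9.03e-04 ± 0.00221. Neighbours in this order were compared within mice by an exact permutation test of sign changes, whose smallest p with 6 mice is 0.03125, or 0.0547 after adjustment over the 7 pairs. Tgm2 over F13a1, F13a1 over Tgm3, Tgm7 over Tgm5 and Tgm4 over Tgm6 reached that limit, the first gene being higher in 6 of 6 mice. Tgm3 was higher than Tgm7 in 3 of 6 mice (exact p = 0.906), Tgm5 higher than Tgm1 in 4 (exact p = 0.625) and Tgm1 higher than Tgm4 in 5 (exact p = 0.0938), so these neighbours did not differ beyond their spread.

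Tgm2, on chromosome 2 from 158116402 to 158146436, was the main transglutaminase of this tissue in 10 of 12 mice, and its level did not differ between genotypes beyond the spread between mice. In APC Min/+ mice the lowest level was 92.8 CPM, in M13_1, the median 133.0 and the highest 158.4. In WT mice the lowest was 64.0 CPM, in M17_1, the median 140.2 and the highest 164.3. The groups overlapped throughout, with M17_1 and M13_1 below the rest. The means were 131.2 ± 21.5 and 130.0 ± 34.7 CPM (SD, n = 6 each), the log2 fold change 0.014 (SE 0.19, FDR = 0.991 in edgeR's quasi-likelihood test). Exact permutation gave p = 0.853, and without M10_2 and M13_1 the log2 fold change was 0.12 (SE 0.21). The sign of this difference changed in 3 of the 12 fits that left out 1 mouse, those without M8_2, M18_2b or M17_1. Rprd1b, which overlaps Tgm2 on the opposite strand, reached 45.2 CPM, and whether the counting used strand is not given in the sources used here.

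F13a1, on chromosome 13 from 36867178 to 37050244, was the second member in all 10 mice with low Tgm3. In APC Min/+ mice it ranged from 14.8 CPM in M13_1 to 46.6 CPM in M2_A with a median of 26.6, and in WT mice from 22.6 to 43.5 CPM with a median of 29.2. The means were 28.7 ± 10.8 and 31.9 ± 7.62 CPM (SD, n = 6 each). The log2 fold change was -0.15 (SE 0.24, FDR = 0.919 in edgeR's quasi-likelihood test), with p = 0.468 in the exact permutation test. Without M10_2 and M13_1 it was 0.07 (SE 0.20, FDR = 0.9999 in the same test), a change of sign within its standard error.

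Both members were set against the summed levels of marker genes across mice. Among the 10 mice without M10_2 and M13_1, Tgm2 rose and fell with the summed level of 8 endothelium genes such as Pecam1, Eng and Cdh5 (r = 0.853, permutation p = 9.00e-05, adjusted 9.00e-04; rho = 0.915, permutation p = 5.10e-04, adjusted 0.00510). Without M17_1 and M20_1, the mice farthest from the median of that sum, r was 0.790. The WT mouse M17_1, lowest in Tgm2, was also lowest in the endothelium sum, at 94.5 CPM against 119 to 203 CPM in the other 9. M10_2 and M13_1 departed from this, with endothelium sums of 211 and 192 CPM beside 130.1 and 92.8 CPM of Tgm2, and over all 12 mice r was 0.669 (permutation p = 0.0261, adjusted 0.105; rho = 0.580, permutation p = 0.0519, adjusted 0.208), which fell to 0.173 without M17_1 and M20_1. With the 8 smooth muscle genes r of Tgm2 was 0.263 in the 10 mice (permutation p = 0.525, adjusted 0.750) and 0.141 over all 12. For endothelium, in the 6 WT mice alone, r was 0.932 (exact permutation p = 0.00694, adjusted 0.0694). The endothelium genes Emcn (13.2 CPM) and Pecam1 (36.2 CPM) were not lowest in M17_1, and both were highest in M2_A. Genes of other lists were also lowest of the 12 mice in M17_1, such as Dsp (248 CPM), Cdx1 (43.1), Vil1 (466) and Slc26a3 (438). Muc2 (10534 CPM) was highest there. Whether a wider feature of the M17_1 library sets its place was not tested. Emcn and these genes of other lists were named after their values were seen.

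F13a1 moved with the summed level of 14 macrophage genes, led in RPKM by C1qa, C1qb and C1qc. In the same 10 mice r was 0.837 (permutation p = 0.00447, adjusted 0.0223), rho was 0.697 (permutation p = 0.0305, adjusted 0.153), and r was 0.726 without M2_A and M16_1, the mice with the highest sums. Over all 12 mice r was 0.809 (permutation p = 0.00214, adjusted 0.0171) and fell to 0.505 without M2_A and M13_1, so it rested in part on these. In the 6 WT mice alone r was 0.862 (exact permutation p = 0.025, adjusted 0.125). The p-values were adjusted over 10 relations in each set of mice, or 8 over all 12, of Tgm2 and F13a1 with the sums of macrophage, smooth muscle, endothelium, fibroblast and colon epithelium genes. In the 10 mice, none of the other 8 passed after adjustment (lowest adjusted p = 0.190 by r and 0.162 by rho, permutation tests). No member of the macrophage or endothelium list was called between genotypes, of 14 and 8 tested, nor was any of the 20311 genes tested (0%). The median log2 fold changes of these lists were -0.02 and 0.19, against -0.01 over all genes tested.

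**Figure D3:**
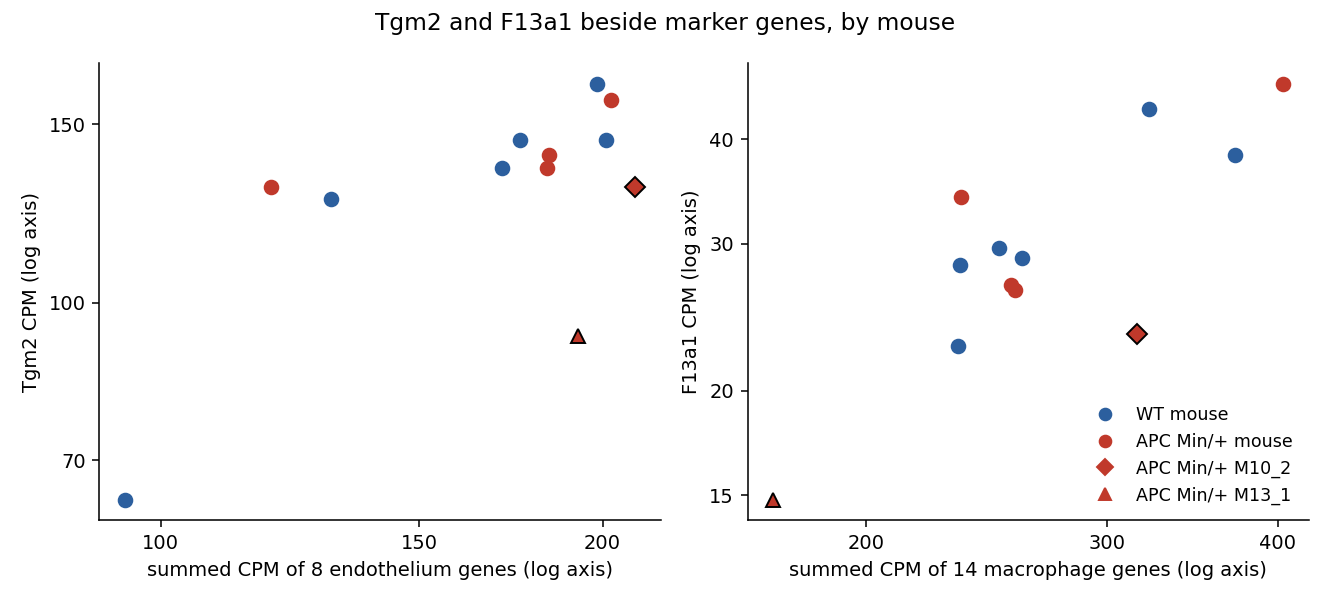
Level of Tgm2 against the summed CPM of 8 endothelium genes (left) and of F13a1 against the summed CPM of 14 macrophage genes (right), all on log axes, 1 point per mouse (WT blue, APC Min/+ red, M10_2 diamond, M13_1 triangle). M17_1, at 94.5 CPM of endothelium genes and 64.0 CPM of Tgm2, is at the lower left of the left panel. M13_1 lies below all mice but M17_1 in the left panel and at the lower left of the right panel.

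Tgm5, an epidermal member, was the only other transglutaminase for which M10_2 and M13_1 were the 2 highest mice, a placing that 11.8% of all genes tested shared. Tgm5 lies on chromosome 2 from 121046111 to 121085841, next to Tgm7. Its level was 0.839 CPM in M13_1, 0.641 CPM in M10_2, and 0.562, 0.446, 0.420 and 0.361 CPM in M20_1, M8_2, M2_A and M18_2b. In the WT mice it ranged from 0.196 to 0.449 CPM with a median of 0.313, so that 3 of 6 APC Min/+ mice lay above all WT mice. The lower of the 2 high levels was 1.14 times that of M20_1, where for Tgm3 this ratio was 385, and the highest count of Tgm5 was 127 reads. The means were 0.545 ± 0.176 and 0.318 ± 0.0866 CPM (SD, n = 6 each) and the log2 fold change was 0.77 (SE 0.26). The unadjusted p was 0.0102 and the FDR 0.908 in edgeR's quasi-likelihood test, so Tgm5 was not a DEG. Its exact permutation p, unadjusted, was 0.0152, and 3.95% of all genes tested had a p under 0.05 in that test. Without M10_2 and M13_1 the log2 fold change was 0.48 (SE 0.25, unadjusted p = 0.0795 in edgeR's quasi-likelihood test), with p = 0.0619 in the exact permutation test.

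Tgm1, the keratinocyte enzyme whose loss causes lamellar ichthyosis, was low in every mouse. It ranged from 0.128 to 0.331 CPM in APC Min/+ mice, with a median of 0.277, and from 0.147 to 0.417 CPM in WT mice, with a median of 0.287. The groups overlapped, and the log2 fold change was -0.15 (SE 0.30, FDR = 0.928 in edgeR's quasi-likelihood test; exact permutation p = 0.621). M10_2, at 0.288 CPM, and M13_1, at 0.331 CPM, lay inside the WT range. Without these mice the log2 fold change was -0.31 (SE 0.34, unadjusted p = 0.383 in edgeR's quasi-likelihood test).

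Tgm7, on chromosome 2 from 121093565 to 121109795, ranged from 0.319 to 0.762 CPM in APC Min/+ mice (median 0.383) and from 0.341 to 0.769 CPM in WT mice (median 0.560). The log2 fold change was -0.34 (SE 0.27, FDR = 0.910 in edgeR's quasi-likelihood test; exact permutation p = 0.229). Its highest APC Min/+ mouse was M18_2b, not one of the mice high in Tgm3, and without it, in 1 of 12 such fits, the unadjusted p in edgeR's quasi-likelihood test was 0.0423, with an FDR of 0.744 and an exact permutation p of 0.0714.

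Tgm4, on chromosome 9 from 123034726 to 123067561, was the lowest member that passed the count filter. It ranged from 0.120 to 0.331 CPM in APC Min/+ mice (median 0.155) and from 0.112 to 0.424 CPM in WT mice (median 0.218). The log2 fold change was -0.42 (SE 0.36, FDR = 0.910 in edgeR's quasi-likelihood test, exact permutation p = 0.361). Without M10_2 and M13_1 it was -0.76 (SE 0.37, unadjusted p = 0.0645 in edgeR's quasi-likelihood test, exact permutation p = 0.148). Zdhhc3, which overlaps Tgm4 on the opposite strand, reached 111 CPM. Without strand, reads from any exon bases that both genes share cannot be told apart, and the extent of such sharing was not tested. The values of Tgm4 are therefore uncertain.

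Tgm6, from 130112416 to 130154232 on chromosome 2, had 2 counts in each of M8_2, M13_1 and M17_1 and none in the other 9 mice. At this depth no difference was detectable, and no fold is given. Epb42, which encodes the erythrocyte protein band 4.2, a relative of the family without enzyme activity, reached 0.101 CPM in M10_2, 0.110 CPM in M13_1 and no more than 0.0626 CPM in the others. Its highest count was 20 reads, and it did not pass the count filter.

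**Figure D4:**
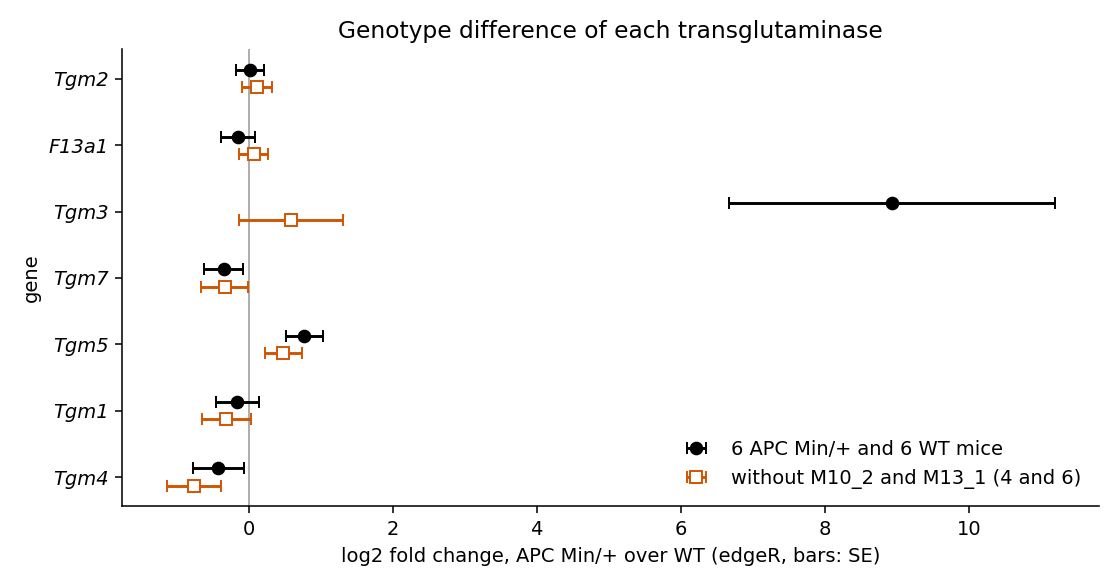
log2 fold change of APC Min/+ over WT mice (x axis) with its standard error for 7 transglutaminases, in edgeR's fit on 6 and 6 mice (filled) and without M10_2 and M13_1 (open). Tgm3 moves from 8.93 to 0.58, Tgm5 from 0.77 to 0.48 and Tgm4 from -0.42 to -0.76 when these mice are left out. The other genes stay between -0.34 and 0.12 in both fits.

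Whether the other members follow Tgm3 was asked in the 10 mice in which Tgm3 was low, since M10_2 and M13_1 would set any correlation over all 12. Tgm3 varied 18.25-fold among these 10 mice, more than Tgm4 (3.78-fold), Tgm1 (3.27-fold), Tgm5 (2.87-fold), Tgm2 (2.57-fold), Tgm7 (2.41-fold) and F13a1 (2.06-fold). No relation passed. Pearson's r was 0.236 for Tgm5, 0.134 for Tgm4, 0.019 for Tgm7, -0.109 for F13a1, -0.226 for Tgm2 and -0.405 for Tgm1. The permutation p adjusted over these 6 relations was at least 0.912, and Spearman's rho lay between -0.370 and 0.139 with no adjusted permutation p under 1. Without M18_b and M8_2, the mice farthest from the median of Tgm3, r of Tgm5 was -0.370. Tgm6 had too few counts for a relation.

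Over all 12 mice, the likeness of each gene to Tgm3 was described by the root mean square difference of centred log2(CPM + 0.1) values. Among 20310 genes, Tgm5 took place 1104, Tgm4 place 5025, Tgm1 place 8214, Tgm7 place 13529, Tgm2 place 15713 and F13a1 place 18515. The genes nearest to Tgm3 belonged to other families. They were Hoxb13, a homeobox gene of the hindmost body (difference 0.746), Ly6g, a neutrophil surface marker (0.942), Fxyd4, a regulator of the sodium pump (1.01), Sval1 (1.24) and Atp12a, the alpha subunit of the non-gastric proton and potassium pump (1.35). Hoxb13 had 378 CPM in M10_2, 275 CPM in M13_1 and no more than 0.744 CPM in the others, of which M8_2, the highest of the 10 in Tgm3, was also the highest in Hoxb13. Ly6g was at 74.9 and 97.9 CPM against at most 0.472 CPM, and Fxyd4 at 43.8 and 98.7 CPM against at most 0.297 CPM. Sval1 was at 698 CPM in both mice against at most 2.68 CPM, and Atp12a at 997 and 983 CPM against at most 7.77 CPM. Genes present in only these 2 mice could not enter this order, since the count filter asked for 3.

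Hoxb13 was picked as the gene nearest to Tgm3 over these same mice, which by itself favours a steady ratio between them. The ratio of Hoxb13 to Tgm3 counts was alike in several mice whose levels differed widely. It was 0.165 in M10_2 (74806 to 453674 counts) and 0.133 in M13_1 (24871 to 186885 counts). It was 0.139 in M8_2 (145 to 1046), 0.145 in M18_2b (24 to 166) and 0.168 in the WT mouse M19_1 (40 to 238). It was lower in M18_2a (25 to 273 counts), M17_2 (2 to 28) and M20_1 (2 to 88), and M17_1 had no count of Hoxb13 beside 318 of Tgm3. M2_A, M16_1 and M18_b, with at most 64 counts of Tgm3, had no count of Hoxb13 either. Ly6g had 0.0327 and 0.0474 counts per count of Tgm3 in M10_2 and M13_1 and 0.0880 in M8_2, and no other mouse had more than 8 counts of it. Atp12a departed from such a ratio in the low mice, where it had between 1.33 and 11.5 counts per count of Tgm3 against 0.435 and 0.476 in M10_2 and M13_1. The Tgm3 level of M8_2 was 0.246% of the mean of the 2 high mice, and that of the other 9 mice was between 0.0135% and 0.135%. The source of these low counts was not tested.

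**Figure D5:**
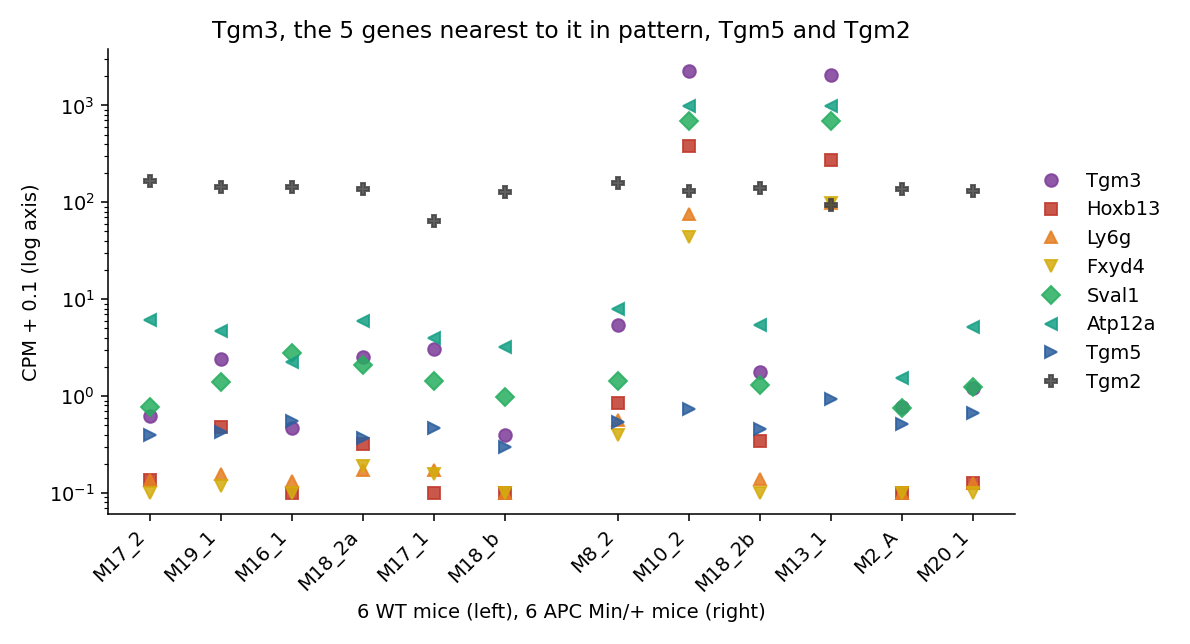
Level, as CPM + 0.1 on a log axis, of Tgm3, the 5 genes nearest to it in pattern, Tgm5 and Tgm2 in each of 6 WT and 6 APC Min/+ mice. Tgm3, Hoxb13, Ly6g, Fxyd4, Sval1 and Atp12a stand at 43.8 CPM or more in M10_2 and M13_1 and at 7.77 CPM or less in the other 10, while Tgm2 stays between 64.0 and 164.3 CPM and Tgm5 under 1 CPM.

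The genes of the cornified envelope, which Tgm1, Tgm3 and Tgm5 are known to seal, and of the proteases, inhibitor and lipoxygenases that act in its formation were mostly at trace level. Of 27 genes of this list found in the tables, 16 stayed under 1 CPM in every mouse and 4, among them Ivl and Sprr3, had no count. None of the 13 tested was called, nor was any of the 20311 genes tested (0%). The median log2 fold change of the 13 was 0.17. M10_2 and M13_1 were the 2 highest mice for 4 of the 13 (30.8%, against 11.8% of all genes tested). Casp14, a protease of cornifying keratinocytes, had 36.8 CPM in M10_2, 47.3 CPM in M13_1 and no more than 0.0535 CPM elsewhere, and it was not tested because it had 10 counts in only 2 mice. Csta1, a cysteine protease inhibitor, was at 4.41 and 4.99 CPM against at most 0.143 CPM, with a log2 fold change of 4.28 (SE 1.34, FDR = 0.908 in edgeR's quasi-likelihood test) that turned to -0.89 without these mice. Sprr1a, another gene of the list, went the other way and was lower in both mice than in any other. It had 0.838 CPM (M10_2) and 1.92 CPM (M13_1), against 6.06 to 83.2 CPM elsewhere. Casp14, Csta1 and Sprr1a were named after their values were seen. The members with the highest RPKM were S100a10, S100a11 and Sprr2a1, and their levels in M10_2 and M13_1 were 216 and 235 CPM, 81.5 and 89.5 CPM, and 340.6 and 418 CPM. In the other 10 mice these genes ranged from 238 to 409 CPM, from 77.7 to 140.4 CPM and from 188 to 613 CPM.

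Squamous epithelium, such as that of the skin or the anus, was looked for by 13 genes, since Tgm1, Tgm3 and Tgm5 are made there. Of these, 8 stayed under 1 CPM in every mouse, and none of the 11 tested was called (0%, as over all 20311 genes tested). Their median log2 fold change was 0.01, and M10_2 and M13_1 were highest for 1 (9.09%). Their summed level was 305 and 291 CPM in M10_2 and M13_1 and between 283 and 552 CPM in the other 10, most of it from Perp and Sfn, which the colon epithelium also makes. Krt10, a keratin gene of differentiating keratinocytes and next in the list by RPKM, was at 3.19 and 3.75 CPM in these mice against 1.77 to 2.69 CPM elsewhere, with a log2 fold change of 0.34 (SE 0.18, FDR = 0.908 in edgeR's quasi-likelihood test) that was 0.11 without them. The keratin gene Krt5 had 0.0909 CPM in M10_2, 0.199 CPM in M13_1 and no more than 0.111 CPM elsewhere. Trp63, the master regulator of squamous cells, was at 0.0909 and 0.0442 CPM against 0.0737 to 0.339 CPM elsewhere. Krt5 and Trp63 were named as defining markers, after their values were seen.

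In edgeR's quasi-likelihood test 0 of the 20311 genes (0%) were called, so no member of any list could be a DEG. For TG2, the genes of 15 binding partners and substrates were all tested and none was called, with a median log2 fold change of 0.21. The 3 most abundant per length were Lgals3, Itgb1 and Vim, with log2 fold changes of -0.16 (SE 0.29), -0.08 (SE 0.11) and 0.02 (SE 0.17). In M10_2 and M13_1, Lgals3 was at 742 and 935 CPM against 1243 to 2844 CPM elsewhere. Itgb1 was at 423 and 453 CPM against 478 to 613 CPM. The summed level of the list was 2603 and 2759 CPM in these mice and at least 2814 CPM in the others. For 5 of the 15 (33.3%, against 11.8% of all genes tested), M10_2 and M13_1 were the 2 highest mice. These were Fn1, Itga5, Mfge8, Itgb3 and Sdc4, named after their values were seen. Fn1, for fibronectin, was at 454 and 472 CPM against 63.4 to 364 CPM elsewhere, and its log2 fold change of 0.70 (SE 0.36) was 0.39 without these mice. For Itga5, an integrin subunit that binds fibronectin, the log2 fold change of 0.64 (SE 0.22) was 0.33 without them, and all 5 had an FDR of 0.908 in edgeR's quasi-likelihood test. For factor XIII, 8 of 13 genes of the fibrin system were tested and none was called, with a median log2 fold change of 0.23. F13b, the carrier subunit, and the fibrinogen genes Fga, Fgb and Fgg, all made in the liver, stayed below 0.04 CPM in every mouse. F3, tissue factor, which starts coagulation, was at 63.4 and 77.2 CPM in M10_2 and M13_1 and between 21.2 and 40.8 CPM in the others (log2 fold change 0.68, SE 0.29, FDR = 0.908 in edgeR's quasi-likelihood test). Without these mice its log2 fold change was 0.11. Thbd and Plau, for thrombomodulin and urokinase, had log2 fold changes of 0.41 (SE 0.20) and 0.42 (SE 0.19), both with FDR = 0.908 in the same test. Other members were lower in M10_2 and M13_1 than in all of the other 10 mice, and they were named after their values were seen. F2, for prothrombin, was at 0.0858 and 0.110 CPM against 0.882 to 2.17 CPM, and its log2 fold change of -0.94 (SE 0.57) was -0.41 without these mice. Serpinf2, for the plasmin inhibitor, was at 0.263 and 0.210 CPM against 0.985 to 1.98 CPM (log2 fold change -0.69, SE 0.45, and -0.22 without them). Cpb2, for a carboxypeptidase that slows clot lysis, was at 0 and 0.110 CPM against 0.380 to 4.17 CPM (log2 fold change -0.95, SE 0.86, and -0.39 without them). The smooth muscle list (led in RPKM by Acta2, Tagln and Actg2), the fibroblast list (Dcn, Col3a1 and Lum) and the colon epithelium list (Car1, Muc2 and Lgals4) also held no DEG, of 8, 8 and 10 tested. Their median log2 fold changes were 0.23, 0.53 and -0.04, and 0.20, 0.32 and 0.11 without M10_2 and M13_1. The posterior Hox list (Hoxb13, Hoxd13 and Hoxa13) had a median of 3.82 over 7 tested genes, which was 0.10 without M10_2 and M13_1, and it too held no DEG.

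The tested neighbours of Tgm3 on chromosome 2 did not share its pattern. Within 250 kb the annotation holds 16 other genes, of which 5 were tested, and M10_2 and M13_1 were the 2 highest mice for none of these 5. The untested neighbours had at most 12 counts in any mouse, several of them none, which is too few to show a pattern. Tgm6, the next protein-coding gene downstream, had 0 and 2 counts in these mice. Stk35, a kinase gene, was at 44.3 and 50.1 CPM and Snrpb, a spliceosome gene, at 70.4 and 66.7 CPM, both inside the range of the other 10 mice. Idh3b, a mitochondrial enzyme gene, was at 202 and 174 CPM against 204 to 257 CPM elsewhere, and its log2 fold change between genotypes was -0.15 (SE 0.10, FDR = 0.908 in edgeR's quasi-likelihood test).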

How the data were processed

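RNA-Seq of proximal colon was analysed in 12 mice, 6 APC Min/+ and 6 WT, grouped by the labels. The authors aligned paired-end 100 bp reads to GRCm38 (GRCm38.p2 and STAR 2.3.0 per the labels) and counted them on genes with featureCounts. They deposited unnormalized counts with a gene length for each mouse. The annotation release, strand setting and treatment of multimapping reads are not given in the sources used here. Other deposited values, the gene lengths, were used for RPKM. Ensembl IDs were matched to GENCODE M21 symbols (37607 of 38924).

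Counts were tested with edgeR 4.0.16 (TMM, quasi-likelihood) in R 4.3.3 on genes that reached 10 counts in 3 or more mice. DEGs had an FDR (Benjamini-Hochberg) under 0.05 and changed at least 2-fold. CPM was scaled by TMM factors, and RPKM is CPM per kb. Single genes were also compared by exact permutation of log2(CPM + 0.1), two-sided, smallest p 0.00216. Correlations used 100000 permutations of log2 values (exact with 6 mice). Those with marker sums were added after the values were seen. On simulated data for this comparison of 20311 genes, 97% of 100 genes changed by 2 on the log2 scale were recovered. The simulation changed all 6 APC Min/+ mice alike, with a limited spread between mice. It therefore does not tell how often a difference held by M10_2 and M13_1 alone would be called. Alternatives were RLE factors, no count filter, DESeq2 1.42.0, edgeR's exact and likelihood ratio tests, leaving out each mouse, other pseudocounts, ranks and CPM without TMM factors. A fit without M10_2 and M13_1 was added after seeing the data.

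The genes, lists and named-gene rule were chosen with earlier results of these data known. All 8 members were named, and from each list the 3 genes highest in RPKM and any DEG, with exceptions stated. Other named genes were the 5 nearest to Tgm3 and those within 250 kb. Labels give mouse names but no shipment, cage or batch of each mouse, so no comparison within batches could be made. Replicates are separate mice.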

Additional observations from a re-analysis of the deposited data

Results flagged for a closer look

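Of 14 groups of 6 mice (7 genes in 2 genotypes), 3 held a mouse far from the other 5 by Dixon's gap test on log2(CPM + 0.1), where chance alone gives about 1 group in 20. Tgm2 was lowest in the APC Min/+ mouse M13_1, at 92.8 CPM, with the other 5 between 130.1 and 158.4 CPM. Tgm2 was also lowest in the WT mouse M17_1, at 64.0 CPM, with the other 5 between 126.5 and 164.3 CPM, and M17_1 was lowest in the endothelium and fibroblast sums (94.5 and 1176 CPM). Tgm4 was highest in the APC Min/+ mouse M13_1, at 0.331 CPM from 30 counts, with the other 5 between 0.120 and 0.177 CPM, and the WT mouse M17_1 was higher, at 0.424 CPM. Tgm3 in the APC Min/+ group was not picked out by this test, since M10_2 and M13_1 lie close together.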

How the results depend on the processing

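No paired analysis was possible because the labels name the mice and give no replicate numbers that the genotypes share. The number of DEGs was 0 in edgeR's quasi-likelihood test, with RLE factors, without the count filter, in the 12 fits that left out 1 mouse and without M10_2 and M13_1; it was 27 with DESeq2, 15 with the likelihood ratio test and 12 with the exact test. Tgm3 passed in these 3 tests with log2 fold changes of 8.96, 8.95 and 8.95. Leaving out 1 mouse gave log2 fold changes of 8.12 to 9.25 for Tgm3, 0.61 to 0.91 for Tgm5, -0.13 to 0.096 for Tgm2, -0.32 to -0.019 for F13a1, -0.30 to -0.011 for Tgm1, -0.68 to -0.16 for Tgm4 and -0.57 to -0.23 for Tgm7. In the exact permutation tests, leaving out 1 mouse gave log2 differences of 2.66 to 4.97 for Tgm3 (p under 0.05 in 2 of 12), 0.49 to 0.70 for Tgm5 (12 of 12), -0.14 to 0.15 for Tgm2 and -0.23 to 0.015 for Tgm1. Ranks turned the difference of Tgm2 to -0.667 rank. Without M10_2 and M13_1, Tgm5 differed by 0.40 (p = 0.0619, exact permutation test) and F13a1 turned to 0.070 in edgeR and 0.064 in the permutation test, and fewer mice were tested. In WT mice alone, r of F13a1 with Tgm3 turned to 0.273. The causes of these changes were not tested. The other 262 values kept their direction and their side of the threshold, though not always their size. Among them was the log2 fold change of Tgm3, which fell from 8.93 to 0.58 without M10_2 and M13_1 and was called in neither fit. The members under 1 CPM in every mouse (Tgm1, Tgm4, Tgm5, Tgm6 and Tgm7) rest on at most 127 counts per mouse, which limits what could be detected.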
